A study of Solanum lycopersicum with 48 samples.

Results

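Phosphoenolpyruvate carboxylase (PEPC) was followed in a nitrogen experiment on tomato through 3 genes, Solyc12g014250, Solyc10g007290 and Solyc07g062530, named in a list of tomato loci for the enzyme. They were found by locus number, with the version suffix removed, in a deposited table of 29898 genes, and all 3 were in it. PEPC is a cytosolic enzyme that joins bicarbonate to phosphoenolpyruvate to give oxaloacetate. In roots and in the leaves of plants such as tomato it refills the pool of organic acids from which carbon skeletons are withdrawn when ammonium is built into amino acids. The plant enzyme is inhibited by malate and is made less sensitive to it when PEPC kinase phosphorylates it.

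The locus numbers place the genes on chromosomes 12, 10 and 7, and the table gave no start, end or gene name for them. The gene table at hand (RefSeq, assembly SLM_r2.1) lists 5 symbols of the enzyme, PEPC1, PEPC2, ppc2, PEPC4 and PPC1, but shares no identifier with the deposited table. The loci are therefore called by number, the class rests on the list, and no symbol or separate role is given to any of them.

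The data came from 48 RNA-seq libraries of 2 tomato cultivars, Guozhen No.1 and Guizhen No.1. The plants were kept in a growth chamber on hydroponic Hoagland solution that held low nitrogen (1 mM) or normal nitrogen (9 mM). Root and leaf were sampled on day 7 and on day 1, which gives 16 groups with 3 libraries in every one. The labels used here do not give the age of the plants, the event from which days were counted, or whether the 3 libraries of a group came from separate plants, so the p-values measure only a spread between libraries that may be technical. In extracts of whole organs, fewer cells of a type and less RNA per cell cannot be told apart.

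Levels are FPKM, fragments scaled to the length of the gene and to the mapped fragments of the library, so the 3 genes can be set side by side. The number of reads was not given. Relative depth, read from the commonest ratio of values below 0.15 FPKM, lay between 0.753 and 2.25 times that of the median library, and 16983 to 18640 genes per library reached 1 FPKM. Summed over 7 loci set down as Rubisco small subunits and chlorophyll-binding proteins, all 7 present in the table, leaf markers lay at 10.7 to 71.0 FPKM in roots. In leaves the same sum lay at 51000 to 86200 FPKM at day 7 and at 3960 to 19600 FPKM at day 1, so every library stood on the side of its labelled organ. Differences were tested with limma on log2(FPKM + 1), a scale that understates the fold of weakly expressed genes. A difference was called when its p, adjusted by the Benjamini-Hochberg method over all genes tested in that comparison, was below 0.05.

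Solyc12g014250 and Solyc10g007290 were the abundant members, and Solyc07g062530 was at a far lower level. Over the 48 libraries, Solyc12g014250 ran from 24.2 to 89.9 FPKM with a median of 55.3. Solyc10g007290 ran from 6.003 to 119.9 FPKM with a median of 48.2. Solyc07g062530 ran from 0.0146 to 2.96 FPKM with a median of 0.316. Solyc07g062530 reached 1 FPKM in 13 of 48 libraries, 6 of root and 7 of leaf, all of them from day 1. Normal nitrogen gave 5 of these 6 root libraries and 6 of these 7 leaf libraries. It passed the filter of at least 1 FPKM in at least 3 libraries only through day 1, and mainly through normal nitrogen on that day, the groups where it is high. Its differences between days and between nitrogen levels at day 1 are therefore tied to that filter and are given as a description, with the adjusted p of a fit that had no filter on low values beside them.

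The order of the 16 group means differed between the 3 genes. Solyc12g014250 was highest in Guozhen leaves at day 1 under normal nitrogen (82.8 ± 6.99 FPKM, SD, n = 3) and lowest in Guozhen roots at day 1 under normal nitrogen (26.1 ± 1.86 FPKM). The 4 lowest groups were the 4 root groups of day 1. Solyc10g007290 was highest in Guizhen roots at day 1 under normal nitrogen (109.0 ± 12.2 FPKM) and lowest in leaves of Guozhen at day 7 with low nitrogen (6.89 ± 0.806 FPKM). All 8 root groups stood above all 8 leaf groups. Solyc07g062530 was highest in Guizhen leaves at day 1 under normal nitrogen (1.89 ± 0.934 FPKM) and lowest in Guizhen leaves at day 7 under normal nitrogen (0.0213 ± 0.00587 FPKM), and its 8 day 1 groups stood above its 8 day 7 groups. Of the 15 pairs of neighbours in each order, the libraries did not overlap in 2 pairs for Solyc12g014250, in 1 for Solyc10g007290 and in 1 for Solyc07g062530. Sorting by the means brings close groups together, so these counts are a description and no test. The same counts were not made over all genes.

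**Figure D1:**
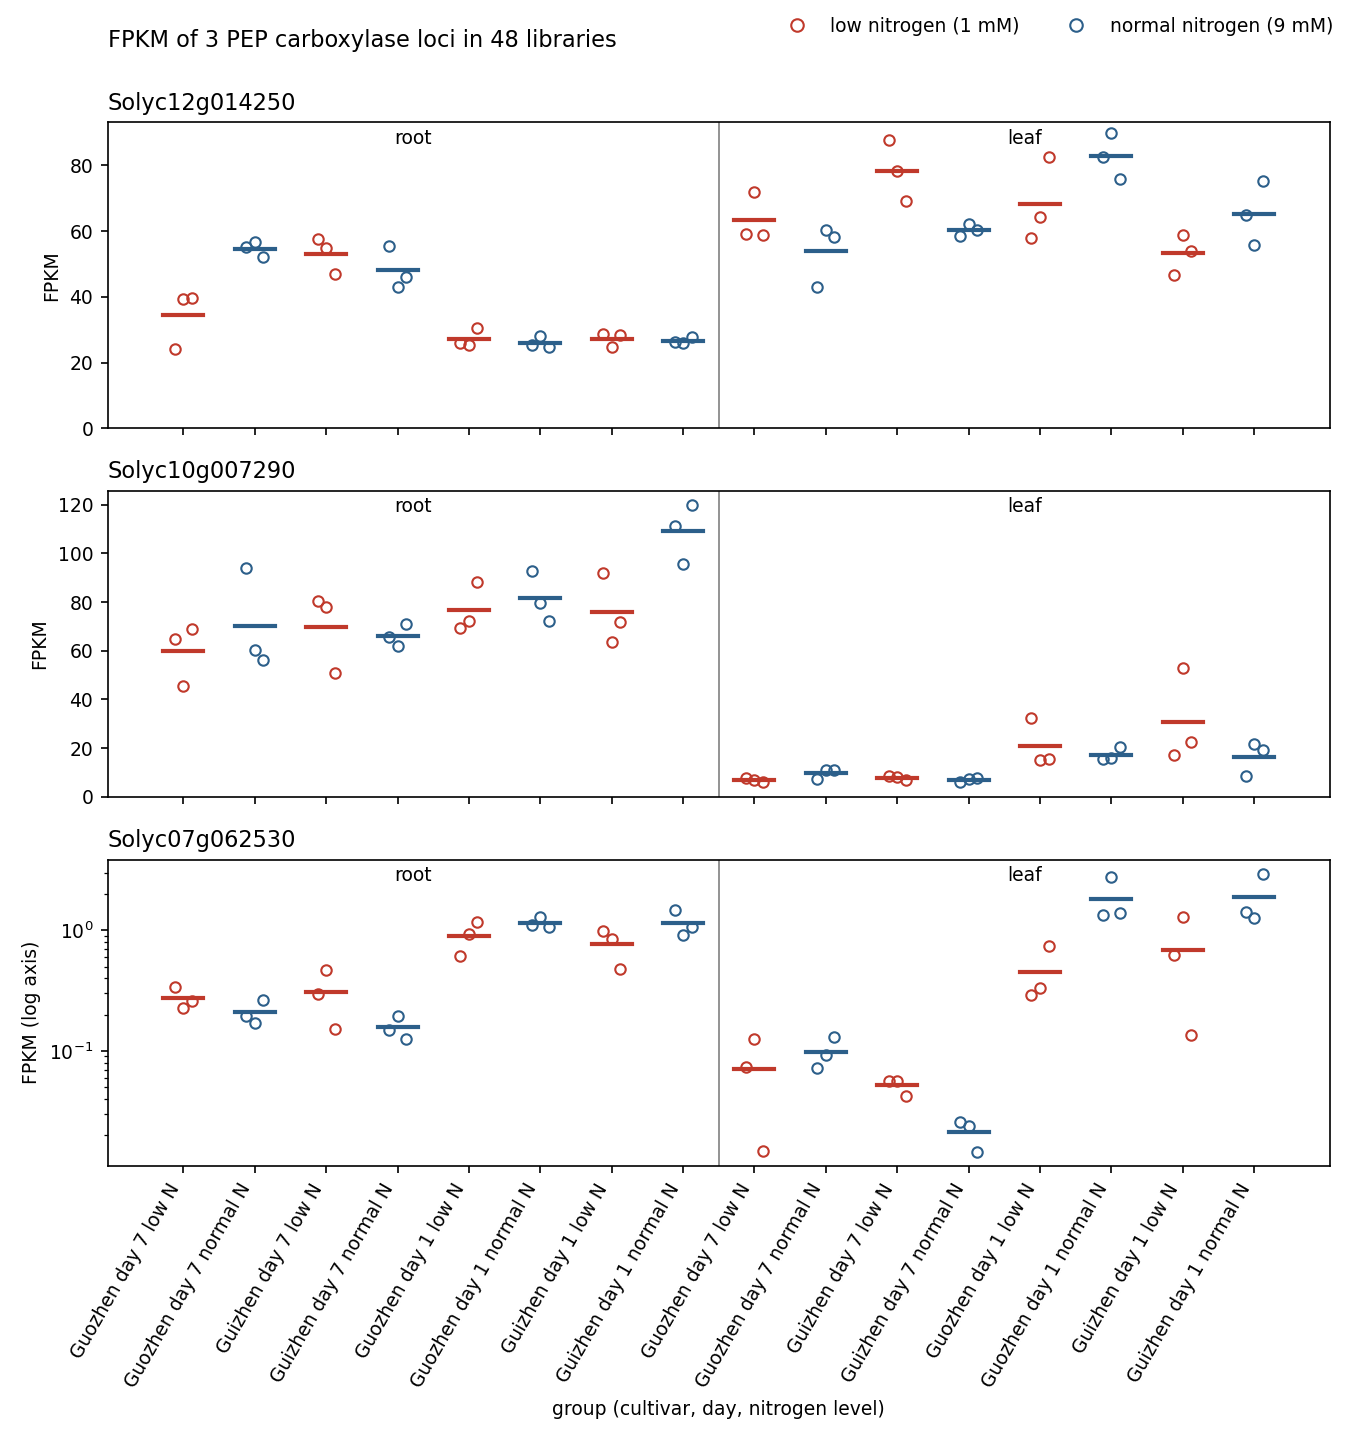
FPKM of the 3 loci in all 48 libraries, 1 panel per locus and 1 column per group of 3 libraries, with roots on the left and leaves on the right. Circles are libraries, bars are group means, red is low nitrogen and blue is normal nitrogen, and the Solyc07g062530 axis is logarithmic. The mean of Solyc10g007290 is higher in every root group than in any leaf group, though single libraries overlap. Solyc07g062530 is at most 0.469 FPKM in every library of day 7.

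Roots held more Solyc10g007290 than leaves in every combination of cultivar, day and nitrogen. In Guozhen plants at day 7 under low nitrogen its 3 root libraries had 65.0, 45.7 and 69.0 FPKM, against 7.58, 7.08 and 6.003 FPKM in leaves. In Guizhen plants at day 1 under low nitrogen the roots had 91.8, 63.7 and 71.9 FPKM, against 17.0, 53.0 and 22.4 FPKM in leaves. The second of these leaf libraries was higher than the others, and the organs still did not overlap in any of the 8 comparisons. How many of all genes showed no overlap was not counted, so this number only describes the locus. Root means were 2.46 times to 9.31 times the leaf means. On the log2(FPKM + 1) scale the differences ran from 1.42 ± 0.30 (SE, limma adjusted p = 9.08e-05) in Guizhen at day 1 under low nitrogen to 3.05 ± 0.30 (adjusted p = 1.73e-11) in Guizhen at day 7 under normal nitrogen. Solyc10g007290 was called higher in root in 8 of 8 comparisons, and no library left out and no other setting ended a call.

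Solyc12g014250 went the other way in most comparisons. In Guozhen plants at day 1 under normal nitrogen its root libraries had 25.4, 28.2 and 24.7 FPKM, against 82.7, 89.9 and 75.9 FPKM in leaves. The organs did not overlap, and the difference of -1.63 ± 0.15 (SE, adjusted p = 9.78e-12) was the farthest from 0 of the 8. It was called lower in root in 6 of 8 comparisons, at -0.55 to -1.63 on the log2 scale. The exceptions were the 2 comparisons at day 7 under normal nitrogen. There Guozhen roots had 54.6 ± 2.28 FPKM and Guozhen leaves 53.9 ± 9.44 FPKM (SD, n = 3 each), a difference of 0.03 with a 95% interval of -0.27 to 0.34 (adjusted p = 0.856). Guizhen roots had 48.2 ± 6.46 FPKM and Guizhen leaves 60.3 ± 1.77 FPKM, a difference of -0.33 with an interval of -0.63 to -0.02 (adjusted p = 0.0504). Both turn on how organs are scaled to each other. With median-of-ratios scaling of the libraries Solyc12g014250 was called lower in root there too, at -0.54 in Guozhen (adjusted p = 0.00111) and -0.93 in Guizhen (adjusted p = 5.77e-07), and Guizhen at day 7 under low nitrogen stood at -0.98 in place of -0.55. The Guizhen comparison under normal nitrogen was also called without root replicate 1 (-0.43, adjusted p = 0.0212) and with only its own 6 libraries in the fit (adjusted p = 0.0309).

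Solyc07g062530 was not called between organs in any of the 8 comparisons, with differences of -0.38 to 0.39. At day 7 the libraries of the organs did not overlap, with leaf values of at most 0.132 FPKM. How many of all genes showed no overlap was not counted, so this only describes the locus. Guizhen roots at day 7 under low nitrogen had 0.298, 0.469 and 0.153 FPKM, against 0.0565, 0.0564 and 0.0424 FPKM in leaves, and the root mean was 5.92 times the leaf mean. The pseudocount of 1 is larger than these values. With a pseudocount of 0.1 the locus was called higher in root at day 7 in Guozhen under low nitrogen (1.18, adjusted p = 0.0119), in Guizhen under low nitrogen (1.35, adjusted p = 0.00436) and in Guizhen under normal nitrogen (1.08, adjusted p = 0.0199). At day 1 calls also appeared when 1 library was left out or with scaling. These fits kept the locus only through its day 1 libraries, so the calls are given as a description. In the fit with no filter on low values none of the 8 comparisons was called. Solyc07g062530 was called lower in root in Guizhen under normal nitrogen without leaf replicate 2 (adjusted p = 0.0272), without root replicate 1 (0.0464) or with scaling (0.0251), and in Guozhen under normal nitrogen without leaf replicate 1 (0.0491). It was called higher in root in Guozhen under low nitrogen without leaf replicate 3 (0.0314) or root replicate 1 (0.0407).

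Root against leaf is a comparison in which most genes were called. At day 7 the share called was 70.2% in Guozhen under low nitrogen, 73.5% in Guozhen under normal nitrogen, 71.0% in Guizhen under low nitrogen and 73.2% in Guizhen under normal nitrogen. At day 1 it was 57.0% in Guozhen under low nitrogen, 59.2% in Guozhen under normal nitrogen, 58.2% in Guizhen under low nitrogen and 59.5% in Guizhen under normal nitrogen. The 14 of 24 calls among the PEPC loci are close to this background, and the number of calls is no result about them. The median of all genes was itself 0.10 to 0.51 higher in root, and scaling took 0.08 to 0.46 off it.

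**Figure D2:**
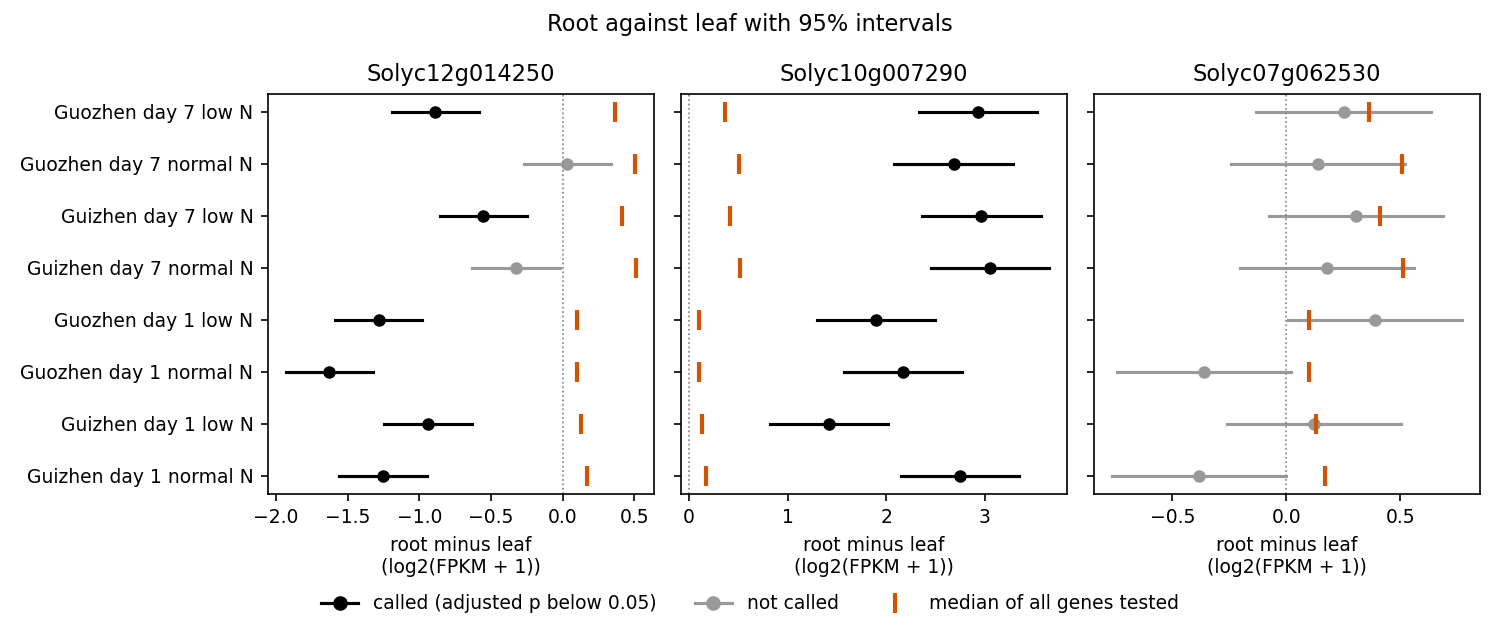
Root minus leaf for the 3 loci in 8 combinations of cultivar, day and nitrogen, as differences of mean log2(FPKM + 1) with 95% intervals. Black marks called differences, grey marks those not called, and the orange tick is the median of all genes tested. Solyc10g007290 lies at 1.42 or above in all 8, and Solyc12g014250 lies below 0 in all except Guozhen at day 7 under normal nitrogen, which falls to -0.54 with scaling.

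Between the days, Solyc12g014250 was called higher at day 7 in 3 of 4 root comparisons. In Guozhen roots under normal nitrogen Solyc12g014250 had 55.2, 56.6 and 52.1 FPKM at day 7, against 25.4, 28.2 and 24.7 FPKM at day 1. The days did not overlap and the difference was 1.04 ± 0.15 on the log2 scale (SE, limma adjusted p = 1.29e-05), a ratio of means of 2.09. In Guizhen roots it rose by 0.94 ± 0.15 under low nitrogen (adjusted p = 4.62e-05) and by 0.83 ± 0.15 under normal nitrogen (adjusted p = 0.000155). The remaining root comparison was Guozhen under low nitrogen. There Solyc12g014250 had 24.2, 39.3 and 39.8 FPKM at day 7, against 26.0, 25.2 and 30.5 FPKM at day 1. The days overlapped through replicate 1 of day 7, and the difference of 0.30 ± 0.15 was not called (adjusted p = 0.0935). It was called without that library (0.53, adjusted p = 0.00101) and with scaling (0.39, adjusted p = 0.0294).

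Solyc10g007290 in roots was called between the days in 1 of 4 comparisons. In Guizhen roots under normal nitrogen it had 65.5, 61.8 and 71.1 FPKM at day 7, against 111.3, 95.8 and 119.9 FPKM at day 1. The days did not overlap, and it fell by 0.71 ± 0.21 (SE, adjusted p = 0.00883). The other 3 root differences were -0.37 in Guozhen under low nitrogen, -0.25 in Guozhen under normal nitrogen and -0.13 in Guizhen under low nitrogen (adjusted p = 0.143 to 0.64).

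In leaves, Solyc10g007290 was lower at day 7 in every comparison, and 3 of 4 were called. Under low nitrogen it fell by 1.40 ± 0.35 (SE, adjusted p = 0.00189) in Guozhen leaves, with 6.89 ± 0.806 FPKM at day 7 and 21.1 ± 9.90 FPKM at day 1 (SD, n = 3 each). In Guizhen leaves under low nitrogen it fell by 1.68 ± 0.35 (adjusted p = 0.000429). Under normal nitrogen Guizhen leaves had 6.24, 7.28 and 7.78 FPKM at day 7, against 8.44, 21.7 and 19.1 FPKM at day 1. The days did not overlap, though replicate 1 of day 1 came close, and the difference was -1.01 ± 0.35 (adjusted p = 0.0182). This call was lost without replicate 2 of day 1 (adjusted p = 0.0971), replicate 3 of day 1 (0.0724) or replicate 1 of day 7 (0.0565), and with scaling (-0.70, 0.0875). Guozhen leaves under normal nitrogen, at -0.76 ± 0.35, were not called (adjusted p = 0.0668) but were with only their own libraries in the fit (0.00862).

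In leaves Solyc12g014250 was called between the days in 2 of 4 comparisons, once in each direction. Guizhen leaves under low nitrogen had 87.6, 78.2 and 69.2 FPKM at day 7, against 46.6, 59.0 and 54.1 FPKM at day 1, and rose by 0.55 ± 0.16 (SE, adjusted p = 0.00519). Guozhen leaves under normal nitrogen had 43.1, 60.5 and 58.2 FPKM at day 7, against 82.7, 89.9 and 75.9 FPKM at day 1, a difference of -0.62 ± 0.16 (adjusted p = 0.00192). Neither pair of days overlapped. The median of all genes in that Guozhen comparison was -0.40, and with scaling, which moved that median by 0.38, Solyc12g014250 was at -0.17 and no longer called (adjusted p = 0.303). The remaining leaf comparisons, at -0.10 in Guozhen under low nitrogen and -0.10 in Guizhen under normal nitrogen, were not called. With scaling they stood at 0.15 in Guozhen and 0.24 in Guizhen.

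The values of Solyc07g062530 were lower at day 7 than at day 1. The farthest apart were Guizhen leaves under normal nitrogen, with 0.0255, 0.0237 and 0.0146 FPKM at day 7, against 1.43, 1.27 and 2.96 FPKM at day 1. Day 7 stood far below every library of day 1, and the difference was -1.45 (adjusted p = 5.99e-05 with no filter). In Guozhen leaves it was -1.33 under normal nitrogen (0.000133 with no filter) and -0.43 under low nitrogen (0.144 with no filter). In roots the differences with no filter were -0.57 in Guozhen under low nitrogen (adjusted p = 0.00102), -0.83 in Guozhen under normal nitrogen (4.15e-05) and -0.89 in Guizhen under normal nitrogen (2.28e-05). With a pseudocount of 0.1 the 8 differences of Solyc07g062530 ran from -1.13 to -3.94. Guozhen leaves under low nitrogen, where the libraries of the days did not overlap, were then called too (adjusted p = 0.00997). That fit kept the filter, so the call is given as a description, and with no filter the comparison was not called (0.144).

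The calls of the remaining pair of Solyc07g062530 differences had little margin when 1 library was left out. In Guizhen roots under low nitrogen (-0.44, adjusted p = 0.0103 with no filter and 0.0176 with it) the call was lost without replicate 1 of day 1 (adjusted p = 0.086), replicate 2 of day 1 (0.0607) or replicate 3 of day 7 (0.0836). In Guizhen leaves under low nitrogen (-0.62, adjusted p = 0.0378 with no filter and 0.0287 with it) it was lost without any of replicates 1, 2 and 3 of day 7 (0.0552, 0.0578 and 0.0611), without replicate 1 of day 1 (0.0582), or without replicate 2 of day 1, which left -0.37 (0.195).

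Many genes differed between the days. The share called in roots was 54.5% in Guozhen under low nitrogen, 48.6% in Guozhen under normal nitrogen, 42.9% in Guizhen under low nitrogen and 45.7% in Guizhen under normal nitrogen. In leaves it was 61.9% in Guozhen under low nitrogen, 61.6% in Guozhen under normal nitrogen, 59.2% in Guizhen under low nitrogen and 59.8% in Guizhen under normal nitrogen. Of the loci that the filter did not select, Solyc12g014250 was called higher in 4 and lower in 1 of 8 comparisons, and Solyc10g007290 lower in 4 of 8, shares near this background. In leaves the summed leaf markers moved with the day, at 51000 to 86200 FPKM at day 7 and 3960 to 19600 FPKM at day 1, and their part in the leaf results was not tested.

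**Figure D3:**
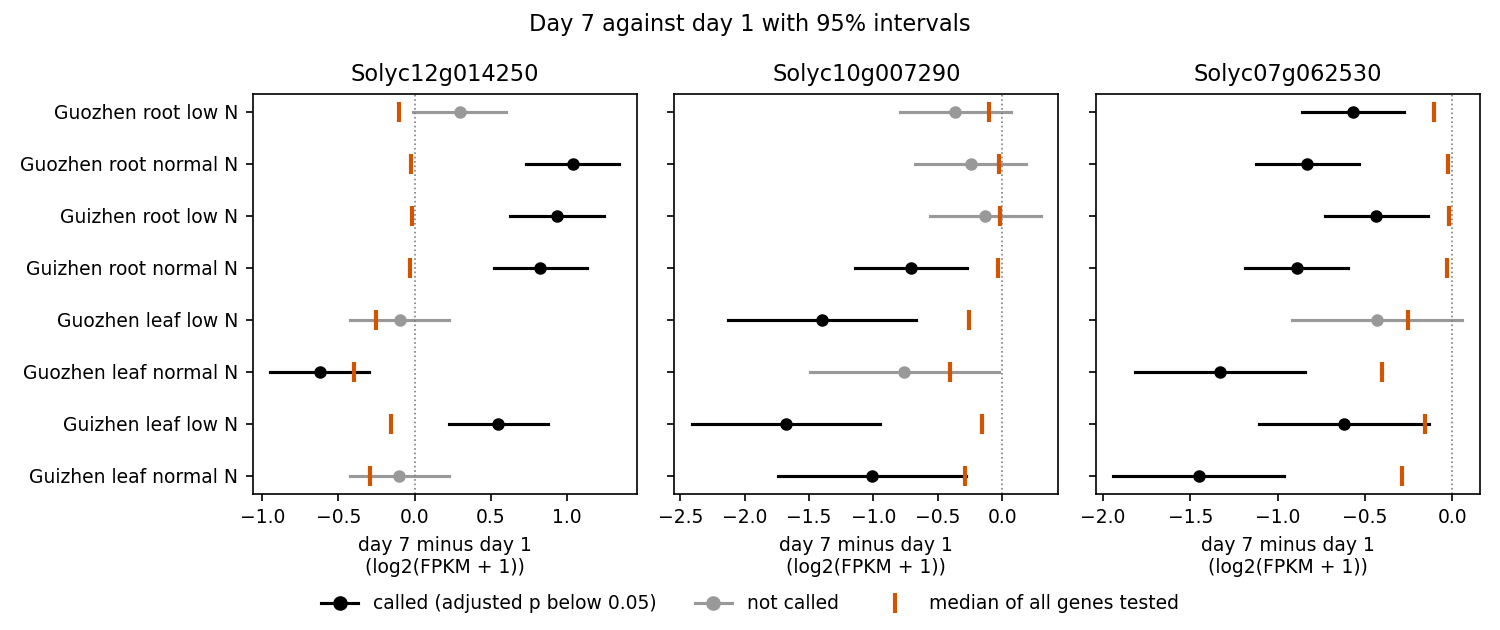
Day 7 minus day 1 for the 3 loci in 8 combinations of organ, cultivar and nitrogen, as differences of mean log2(FPKM + 1) with 95% intervals. Black marks called differences, grey marks those not called, and the orange tick is the median of all genes tested. In roots Solyc12g014250 lies at 0.30 to 1.04, while Solyc07g062530 lies below 0 in all 8 combinations.

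The question the series was built for is the response to low nitrogen. Of 24 comparisons of a locus within a single cultivar, 1 was called. Of all genes tested, 7.92% to 27.6% were called in such comparisons at day 7 and 0.00979% to 0.116% at day 1. The number of calls is therefore no result about the loci. Solyc12g014250 fell in Guozhen roots at day 7. It had 24.2, 39.3 and 39.8 FPKM under low nitrogen, against 55.2, 56.6 and 52.1 FPKM under normal nitrogen. All 3 libraries under low nitrogen were below all 3 under normal nitrogen, and replicate 1 was the lowest of them. The mean under low nitrogen was 0.63 times that under normal nitrogen, a difference of -0.69 ± 0.15 (SE, 95% interval -0.99 to -0.38, limma adjusted p = 0.00222). Without replicate 1 of low nitrogen it was -0.46 (adjusted p = 0.0107), and it was called under every other setting and with any single library left out. In this comparison 27.6% of all genes tested were called.

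In Guizhen roots at day 7, where 7.92% of genes were called, Solyc12g014250 had 57.6, 54.7 and 46.8 FPKM under low nitrogen, against 55.4, 43.0 and 46.0 FPKM under normal nitrogen. The groups overlapped, and the difference was 0.14 with a 95% interval of -0.17 to 0.45 (adjusted p = 0.633). The Guozhen response minus the Guizhen response was -0.83 ± 0.21 (SE, 95% interval -1.26 to -0.39). It was not called (adjusted p = 0.0672), in a comparison in which 0.387% of genes were, so the cultivars were not shown to differ. Without replicate 3 of Guozhen under low nitrogen it was called (-0.94, adjusted p = 0.0358). Averaged over both cultivars, Solyc12g014250 at day 7 in root was at -0.27 ± 0.10 (adjusted p = 0.0544), where 29.5% of genes were called. That average was called without replicate 2 (0.0281) or replicate 3 (0.0251) of Guozhen under low nitrogen or replicate 2 of Guizhen under normal nitrogen (0.045).

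At day 1 Solyc12g014250 was not called for nitrogen in roots. Its differences were 0.06 in Guozhen (95% interval -0.25 to 0.36) and 0.03 in Guizhen (-0.28 to 0.34). The Guozhen response at day 7 minus that at day 1 was -0.74 ± 0.21 (SE, adjusted p = 0.0249), with 13.3% of genes called. This call was lost without replicate 1 of day 1 under normal nitrogen (adjusted p = 0.0601), replicate 2 of day 7 under normal nitrogen (0.0551) or replicate 3 of day 1 under low nitrogen (0.0567), and with only the 12 libraries it concerns in the fit (0.0737). In Guizhen roots the same difference was 0.11 (adjusted p = 0.869), with 0.935% of genes called.

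Neither of the other members was called for nitrogen in roots. Solyc10g007290 in Guizhen roots at day 1 had 91.8, 63.7 and 71.9 FPKM under low nitrogen, against 111.3, 95.8 and 119.9 FPKM under normal nitrogen. The groups did not overlap, and the difference was -0.53 ± 0.21 (SE, adjusted p = 0.444) in a comparison with only 0.00979% of genes called. In the other root comparisons of a single cultivar it lay between -0.21 and 0.05. Solyc07g062530 lay there between -0.29 and 0.17. In Guozhen roots at day 1, 0.0391% of genes were called, and for the mean of both cultivars in root at day 1 it was 0.0734%. The difference of response between cultivars in root at day 1 also called 0.0734% of genes and none of the 3 loci.

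In leaves at day 7, Solyc12g014250 stood higher under low nitrogen. Guizhen leaves had 87.6, 78.2 and 69.2 FPKM under low nitrogen, against 58.5, 62.0 and 60.4 FPKM under normal nitrogen. Guozhen leaves had 59.1, 72.0 and 58.7 FPKM under low nitrogen, against 43.1, 60.5 and 58.2 FPKM under normal nitrogen. The groups did not overlap in Guizhen and overlapped in Guozhen, and neither Guizhen (0.37 ± 0.16 SE, adjusted p = 0.108) nor Guozhen (0.24 ± 0.16, adjusted p = 0.318) was called alone. The mean of both cultivars was called, at 0.30 ± 0.11 (SE, adjusted p = 0.0394). That call has little margin. The median of all genes moved with it at 0.16, and with scaling, which took 0.13 off that median, Solyc12g014250 was at 0.13 (adjusted p = 0.338). In Guozhen the call was lost without low nitrogen replicate 2 (adjusted p = 0.11) or normal nitrogen replicate 1 (0.116). In Guizhen it was lost without low nitrogen replicates 1 (0.0991) or 2 (0.067), or normal nitrogen replicates 1 (0.0728), 2 (0.0557) or 3 (0.0628). Genes called were 17.7% in Guozhen, 16.6% in Guizhen and 36.0% for the mean. Summed leaf markers lay at 51000 to 73300 FPKM under low nitrogen and 57400 to 86200 FPKM under normal nitrogen, and their part was not tested.

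In leaves at day 1, the values of Solyc07g062530 were lower under low nitrogen. It passed the filter here through the libraries of normal nitrogen. Guozhen leaves had 0.291, 0.334 and 0.742 FPKM under low nitrogen, against 1.34, 2.78 and 1.39 FPKM under normal nitrogen. Guizhen leaves had 0.626, 1.29 and 0.136 FPKM under low nitrogen, against 1.43, 1.27 and 2.96 FPKM under normal nitrogen. The groups did not overlap in Guozhen, and in Guizhen replicate 2 of low nitrogen lay within the range of normal nitrogen. The differences of -0.94 ± 0.23 in Guozhen (SE, adjusted p = 0.141) and -0.79 ± 0.23 in Guizhen (adjusted p = 0.145) were not called. Of all genes tested, 0.0606% were called in Guozhen and 0.116% in Guizhen. The Guozhen difference was called without replicate 3 of low nitrogen (-1.07, adjusted p = 0.0142). That fit kept the locus through normal nitrogen, so the call is given as a description. With no filter and all libraries the difference was not called, and leaving out a library with no filter was not tried. The mean of both cultivars, with 2.45% of genes called, was at -0.86 ± 0.17 (95% interval -1.21 to -0.52, adjusted p = 0.0281 with no filter and 0.0205 with it). The call was lost without replicate 1 of Guozhen low nitrogen (0.0587), replicate 3 of Guizhen low nitrogen (0.0605) or replicate 3 of Guizhen normal nitrogen (0.0668), and with only the 12 libraries of that day in the fit (0.195), a fit in which 0 genes were called. Summed leaf markers lay at 3960 to 16200 FPKM under low nitrogen and 9490 to 19600 FPKM under normal nitrogen, and their part was not tested.

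The other leaf comparisons of nitrogen were not called. Solyc12g014250 at day 1 was at -0.29 in Guozhen (adjusted p = 0.533) and -0.28 in Guizhen (0.446). Its mean over both cultivars was -0.29 (adjusted p = 0.144), called without replicate 3 of Guozhen low nitrogen (-0.36, 0.027). Solyc10g007290 in Guizhen leaves at day 1 was at 0.80 ± 0.35 (adjusted p = 0.315), with 53.0 FPKM in replicate 2 of low nitrogen and 8.44 to 22.4 FPKM in the other 5 libraries. Differences of the response between cultivars called none of the 3 loci, at 0.0% of genes at day 7 and 0.0858% at day 1. Over the 12 such tests in both organs, 1 had an unadjusted p below 0.05, Solyc12g014250 in root at day 7. Differences of the leaf response between days called 4.84% of genes in Guozhen and 1.59% in Guizhen, and none of the 3 loci. Those of Solyc12g014250 were 0.52 ± 0.22 in Guozhen leaves (adjusted p = 0.152) and 0.65 ± 0.22 in Guizhen leaves (adjusted p = 0.104), and those of Solyc07g062530 were 0.90 ± 0.33 in Guozhen leaves (0.106) and 0.83 ± 0.33 in Guizhen leaves (0.153).

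**Figure D4:**
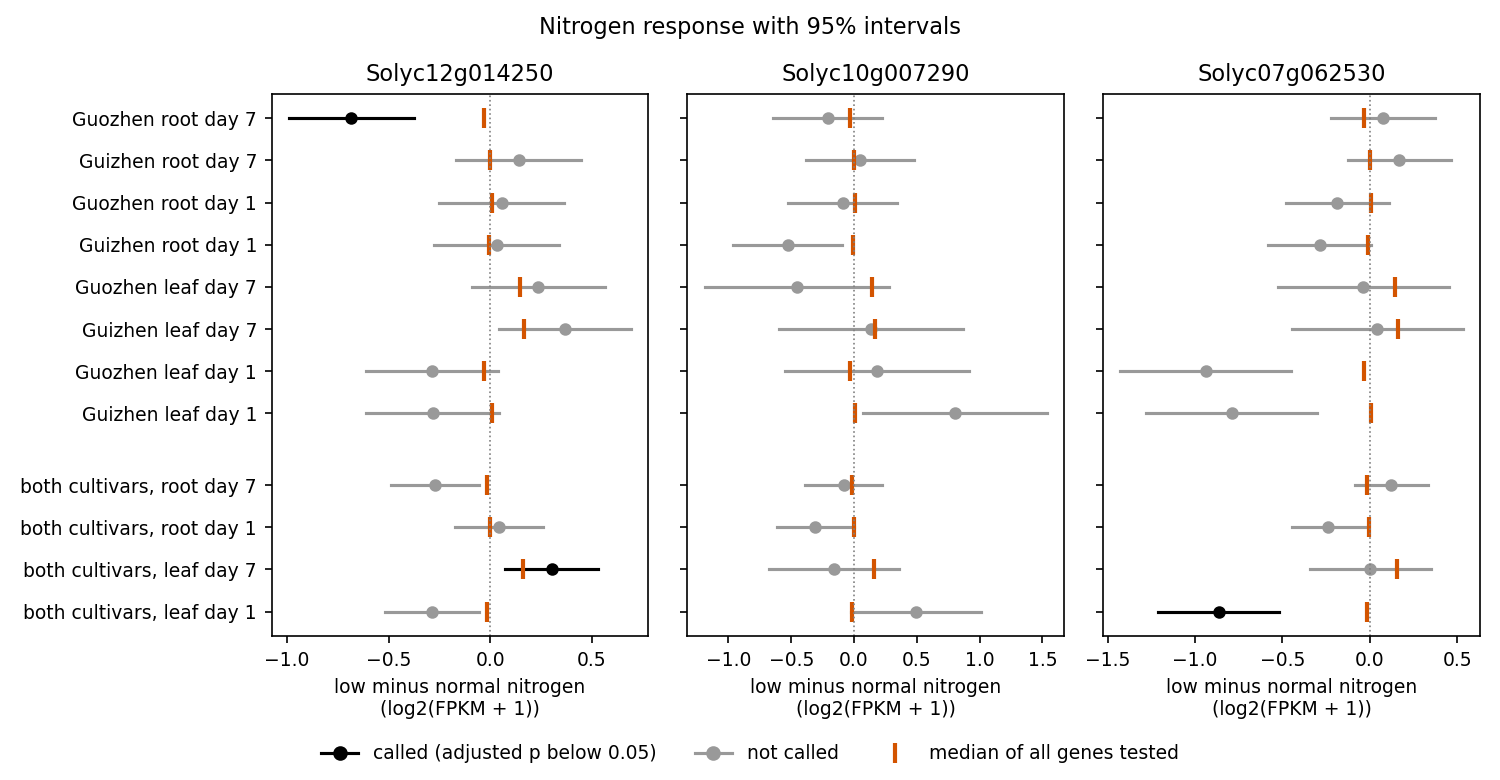
Low minus normal nitrogen for the 3 loci in each organ, cultivar and day, and below these the mean of both cultivars, as differences of mean log2(FPKM + 1) with 95% intervals. Black marks called differences, grey marks those not called, and the orange tick is the median of all genes tested. Among single cultivars only Solyc12g014250 in Guozhen roots at day 7, at -0.69, was called.

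The cultivars themselves differed at 1 locus in 1 of 24 comparisons. In roots at day 7 under low nitrogen Solyc12g014250 had 24.2, 39.3 and 39.8 FPKM in Guozhen, against 57.6, 54.7 and 46.8 FPKM in Guizhen. The cultivars did not overlap, and the difference was -0.64 ± 0.15 (SE, limma adjusted p = 0.00878), with 12.7% of genes called. These are the same Guozhen libraries as in the nitrogen comparison. Without replicate 1 of Guozhen the difference was -0.41 (adjusted p = 0.0455), and with only these 6 libraries in the fit it was not called (0.148). At normal nitrogen on the same day it was 0.19 with a 95% interval of -0.12 to 0.49 (adjusted p = 0.689), with 0.925% of genes called.

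In the roots of day 1 the cultivars were close for Solyc12g014250, at -0.0005 under low nitrogen (95% interval -0.31 to 0.31) and -0.03 under normal nitrogen (-0.33 to 0.28). Solyc10g007290 under normal nitrogen had 81.6 ± 10.2 FPKM in Guozhen and 109.0 ± 12.2 FPKM in Guizhen (SD, n = 3 each), without overlap, and was not called (-0.41, adjusted p = 0.483). Genes called were 0.763% under low nitrogen and 1.56% under normal nitrogen. In leaves of day 1 Solyc12g014250 had 82.8 ± 6.99 FPKM in Guozhen and 65.2 ± 9.74 FPKM in Guizhen under normal nitrogen (0.35 ± 0.16 SE, adjusted p = 0.264), and the libraries did not overlap. Genes called in leaves were 1.61% under low and 2.92% under normal nitrogen at day 1, and 1.64% under low and 0.691% under normal nitrogen at day 7.

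Expressed as shares of the summed FPKM of the 3 loci, the make-up of that sum differed by organ and day. The gene table at hand lists 5 symbols of the enzyme, so the sum may not hold all PEPC transcripts. In roots of day 7, Solyc12g014250 held 27.0% to 48.4% of the sum over 12 libraries (median 41.4%) and Solyc10g007290 51.5% to 72.6% (median 58.4%). In roots of day 1, Solyc12g014250 held 18.6% to 28.1% (median 25.3%) and Solyc10g007290 71.4% to 80.7% (median 73.7%). Solyc10g007290 was therefore the larger part in all 24 root libraries. In leaves the larger part was Solyc12g014250, at 83.8% to 91.0% at day 7 (median 89.9%) and 52.1% to 86.8% at day 1 (median 77.5%). The share of Solyc07g062530 was at most 3.05% in any library.

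The summed FPKM of the 3 loci ran from 85.2 to 149.4 over the root libraries and from 50.7 to 113.3 over the leaf libraries. Its median was 113.0 FPKM in roots of day 7 and 114.2 FPKM in roots of day 1, and 69.4 FPKM in leaves of day 7 and 94.0 FPKM in leaves of day 1. Guozhen roots at day 7 had a sum of 94.6 ± 12.7 FPKM under low nitrogen and 125.0 ± 21.5 FPKM under normal nitrogen (SD, n = 3 each). In those roots Solyc12g014250 held 36.5 ± 9.58% under low nitrogen and 44.4 ± 6.47% under normal nitrogen. These shares and sums are descriptions with no test.

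**Figure D5:**
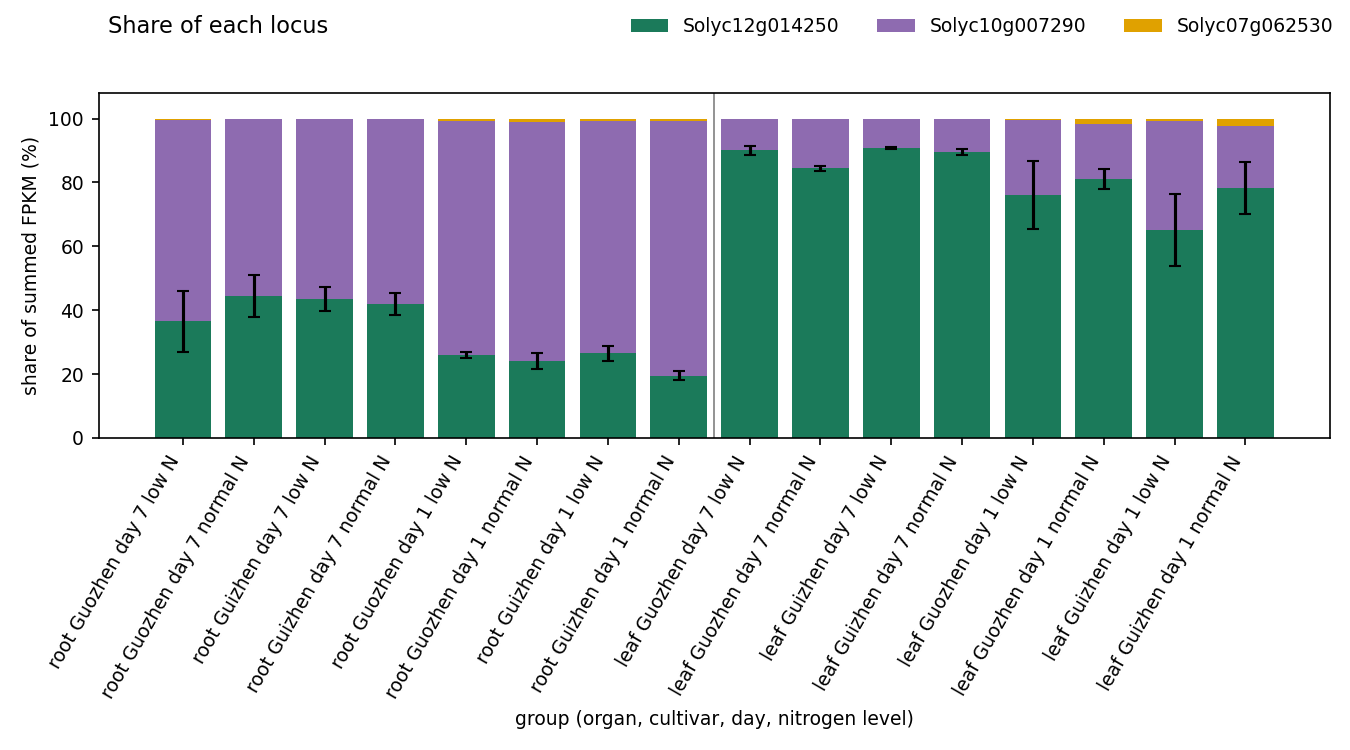
Share of each locus in the summed FPKM of the 3 loci, as the mean of 3 libraries in each of 16 groups. Black bars are the SD of the Solyc12g014250 share, in percentage points. Solyc10g007290 is the larger part in all 8 root groups and Solyc12g014250 in all 8 leaf groups.

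Across the 24 libraries of an organ the 3 loci did not follow a common pattern. In roots Pearson's r of log2(FPKM + 1) was -0.78 between Solyc12g014250 and Solyc07g062530, 0.66 between Solyc10g007290 and Solyc07g062530 and -0.36 between Solyc12g014250 and Solyc10g007290. In leaves r was 0.38 between Solyc12g014250 and Solyc07g062530, 0.58 between Solyc10g007290 and Solyc07g062530 and -0.02 between Solyc12g014250 and Solyc10g007290. The values share libraries and span 2 days, so these are descriptions of how the groups are placed and carry no p.

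For each locus the most similar other genes were listed by the same r over 24 libraries, among 13953 genes of at least 5 FPKM on average in root and 13272 in leaf. These values too span both days, so they describe how the groups are placed and carry no p. In roots Solyc12g014250 was most like Solyc10g044670 (r = 0.96), Solyc09g055340 (0.96) and Solyc05g009630 (0.95). Solyc07g062530 was most like Solyc10g081660 (0.94), Solyc04g079660 (0.94) and Solyc05g055470 (0.94). Solyc10g007290 had less similar companions there, at 0.76 for Solyc10g007180 and 0.74 for Solyc07g062600 and for Solyc02g087640. In leaves the highest were Solyc04g079900 for Solyc12g014250 (0.92), Solyc01g110060 for Solyc10g007290 (0.96) and Solyc05g052570 for Solyc07g062530 (0.89).

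The surrounding pathways were read through 2 lists of locus numbers, whose classes could not be checked against an annotation, and only counts are given. The organic acid list (PEP carboxykinase, malate dehydrogenase, malic enzyme, citrate synthase, aconitase, fumarase, isocitrate dehydrogenase and a malate channel) had 14 loci, of which 12 were in the table, 10 tested in root and 11 in leaf. At day 7 under low nitrogen, Guozhen roots had 0 called higher and 2 lower and so had Guizhen roots, with 0 higher and 3 lower in Guozhen leaves, and 0 higher and 1 lower in Guizhen leaves. The shares of all genes called in these comparisons were 27.6% in Guozhen roots, 7.92% in Guizhen roots, 17.7% in Guozhen leaves and 16.6% in Guizhen leaves, and numbers this small are not set apart from them. Its median difference was 0.04 in Guozhen roots (all genes tested -0.03) and -0.03 in Guizhen roots (all genes 0.00). In leaves it was -0.39 in Guozhen (all genes 0.14) and -0.18 in Guizhen (all genes 0.16).

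The nitrogen assimilation list (nitrate and nitrite reductase, glutamine synthetase and glutamate synthase) had 7 loci, all tested. In Guozhen roots at day 7, 1 was called higher and 4 lower, with a median of -0.93 (all genes -0.03, 27.6% called), and 1 higher and 1 lower in Guizhen roots, with a median of -0.26 (all genes 0.00, 7.92% called). In leaves 1 was called higher and 2 lower in Guozhen (median -0.37, all genes 0.14, 17.7% called), and 1 higher and 1 lower in Guizhen (median -0.22, all genes 0.16, 16.6% called). At day 1 neither list had a locus called in either organ or cultivar.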

How the data were processed

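Per the labels' protocols, a Tiangen kit served for RNA and the NEBNext Ultra kit for libraries. The submitters' processing notes name HISAT2 and StringTie. Versions, build and annotation are not given in the sources used here. One table was deposited by the authors, made up of FPKM values for all 48 libraries and 29898 genes, 1893 of them newly assembled. Groups came from the sample labels. No 2 libraries held identical values, and column sums lay between 577123 and 689680.

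The table was read as deposited. Values were transformed to log2(FPKM + 1), and genes of at least 1 FPKM in at least 3 libraries of a fit were kept, which left 20435 genes in root, 19815 in leaf and 22117 in both organs together. In limma 3.58.1 (R 4.3.3), a linear model with a mean for each group and a variance trend in eBayes was applied to the 24 libraries of an organ (all 48 for root against leaf). This gave 44 comparisons and 132 tests of the 3 loci. The fit was tried on simulated data for 1 root comparison, with changes of at least 1 log2 unit placed only in well expressed genes. Smaller changes, changes in weakly expressed genes and leaves were not simulated. Depth is unknown, so no counting interval is given, and 3 against 3 libraries cannot reach a p below 0.1 in an exact permutation test. Alternatives were a pseudocount of 0.1, no filter, median-of-ratios scaling, only the libraries of the comparison, a replicate block, each library left out, and, chosen after seeing the data, no trend of variance on mean. The members, the lists and the rule for similar genes (the 3 of highest r) were chosen with earlier results of these data known. Plots used matplotlib 3.10.9 under Python 3.11.15.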

Additional observations from a re-analysis of the deposited data

Results flagged for a closer look

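One result stood out because the nitrogen response differed between days. Solyc12g014250 in Guozhen roots responded to low nitrogen at day 7 by -0.69 and at day 1 by 0.06, a difference of -0.7415 ± 0.21 on the log2(FPKM + 1) scale (SE, limma adjusted p = 0.0249). The call was lost when any of 3 libraries was left out (adjusted p = 0.0551 to 0.0601) and with only these groups in the fit (0.0737). Groups of 3 libraries are too small to test for single outlying libraries.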

How the results depend on the processing

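Of 132 tests of the 3 loci, 35 were called, 8 of them of Solyc07g062530, which the filter kept only through day 1, and 27 of these were called with every library left out and under every alternative that tested them. Of the 97 not called, 82 were called under none. Leaving out the filter, the trend of variance on mean (chosen after seeing the data) or using a replicate block changed no call. The labels do not say what a replicate number shares, and same-numbered libraries did not deviate together (5 of 24 pairs over 0.1, -0.20 to 0.16). With only the libraries of the comparison Solyc07g062530 was not tested in 27 of them. Reads per library are not given, so the sampling error of its low values is unknown. Over all genes, such a fit called fewer by over 1.5 times in 20 of 44 comparisons. For nitrogen in Guizhen roots at day 7 it called 35 genes higher and 14 lower, against 905 and 713 with the whole organ. In Guozhen roots at day 7 it called 2016 higher and 1791 lower, against 2622 and 3018. Scaling moved the split of calls by over 10 percentage points in 16 of the 35 comparisons with at least 100 calls. For the mean nitrogen response in leaf at day 7 it gave 2753 higher and 3015 lower, against 5258 and 1875. Scaling moved the median of all genes by over 0.1 only in comparisons that involve leaves, and it turned 6 results. These were Solyc12g014250 in the Guozhen minus the Guizhen response in leaf at day 1 (0.032), day 7 minus day 1 in Guozhen leaves under low nitrogen (0.15) and in Guizhen leaves under normal nitrogen (0.24), and root minus leaf in Guozhen at day 7 under normal nitrogen (-0.54, the one that was then called). They were also Solyc10g007290 for nitrogen in Guizhen leaves at day 7 (-0.023) and Solyc07g062530 for the mean nitrogen response in leaf at day 7 (-0.0093). Scaling also ended the call of Solyc12g014250 for the mean nitrogen response in leaf at day 7 (0.13), and a fit of only its own libraries that of Solyc07g062530 in leaf at day 1 (-0.86). Beyond the scaling itself, the cause was not tested.

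With 1 library left out in turn, these results changed sign or call, besides the calls given with the results above, and the lowest and highest value of each is given (low and normal stand for the nitrogen level). For Solyc12g014250 these were the following. Low minus normal nitrogen ran -0.024 to 0.11 (Guozhen root day 1) and -0.0082 to 0.098 (Guizhen root day 1). The mean nitrogen response ran -0.33 to -0.16 (root day 7), 0.23 to 0.35 (leaf day 7) and -0.36 to -0.23 (leaf day 1). The Guozhen minus the Guizhen response ran -0.0545 to 0.0812 (root day 1), -0.94 to -0.60 (root day 7) and -0.15 to 0.11 (leaf day 1). Guozhen minus Guizhen ran -0.082 to 0.0101 (root day 1 normal) and -0.081 to 0.051 (root day 1 low). Day 7 minus day 1 ran -0.21 to 0.044 (Guozhen leaf low) and -0.21 to 0.0045 (Guizhen leaf normal). Root minus leaf ran -0.12 to 0.12 (Guozhen day 7 normal). For Solyc10g007290, none of them called, these were the following. Low minus normal nitrogen ran -0.19 to 0.004 (Guozhen root day 1), -0.35 to 0.017 (Guozhen root day 7) and -0.069 to 0.26 (Guizhen root day 7). It also ran -0.16 to 0.37 (Guozhen leaf day 1). The mean nitrogen response ran -0.15 to 0.032 (root day 7). Guozhen minus Guizhen ran -0.18 to 0.19 (root day 7 normal), -0.091 to 0.17 (root day 1 low) and -0.23 to 0.41 (leaf day 1 normal). It also ran -0.80 to 0.015 (leaf day 1 low). The day 7 minus the day 1 response ran -0.26 to 0.11 (Guozhen root). Day 7 minus day 1 ran -0.25 to 0.0795 (Guizhen root low). For Solyc07g062530 these were the following. Low minus normal nitrogen ran -1.07 to -0.71 (Guozhen leaf day 1) and -0.074 to 0.0007 (Guozhen leaf day 7). The mean nitrogen response ran -0.016 to 0.022 (leaf day 7) and -0.99 to -0.74 (leaf day 1). The Guozhen minus the Guizhen response ran -0.027 to 0.22 (root day 1) and -0.40 to 0.10 (leaf day 1). Guozhen minus Guizhen ran -0.075 to 0.11 (root day 1 normal), -0.022 to 0.22 (root day 1 low) and -0.12 to 0.059 (root day 7 low). It also ran -0.24 to 0.24 (leaf day 1 normal), -0.011 to 0.063 (leaf day 7 low) and -0.42 to 0.086 (leaf day 1 low). Root minus leaf ran -0.13 to 0.37 (Guizhen day 1 low).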
